A study of Mus musculus with 7 samples.

Results

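The genes described here are 40 genes of the endoplasmic reticulum (ER) folding and quality control machinery, out of 37620 genes in the count table. They were chosen by name for what their products do, with earlier results of these data known. Of the 40, 4 are the stress sensors and a transcription factor, and 12 are chaperones and co-chaperones. Disulfide isomerases and thioredoxin-like proteins make up 8, the translocon and its glycosylation and accessory complexes 8, and ER-associated degradation 8. All 40 were measured at levels that entered the test. RNA was sequenced from whole liver of C57BL/6 mice, an inbred strain, and the groups were set by bile acids: 4 libraries carry the label H-TBA, for high total bile acids, and 3 carry the label L-TBA, for low total bile acids. Both groups had eaten a Western diet for 30 weeks, and no chow-fed group is part of the comparison. The level of bile acids that divided the groups is not given in the sources used here. Nothing in the labels ties each library to an animal of its own, and the p-values therefore rest on library-to-library spread, which may be technical. The series concerns spontaneously raised bile acids in this strain and liver cancer in fatty liver disease.

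The ER is where liver cells make the proteins they secrete, such as albumin, clotting factors and the apolipoproteins. New chains enter through the Sec61 channel, receive N-glycans and disulfide bonds, and are held by chaperones of the Hsp70, Hsp90 and lectin types until they fold. Chains that fail to fold are drawn back into the cytosol, tagged with ubiquitin and destroyed, which is ER-associated degradation (ERAD). When unfolded chains build up, the sensors Ern1 (IRE1), Atf6 and Eif2ak3 (PERK) start the unfolded protein response, in which Xbp1 and Atf6 switch on most of the genes described here.

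Total counts were 9996990 to 12152613 per library. On the main principal component (64.7% of the variance), H-TBA 1 scored -10.7 and the other 3 H-TBA libraries -43.5 to -34.6, against 36.8 to 45.2 for the L-TBA libraries. The 10 hepatocyte markers summed to 62628 to 69969 CPM (counts scaled to library size) in H-TBA and 68943 to 77125 CPM in L-TBA, as a liver label requires. The 12 bile duct markers summed to 1016 to 1940 CPM in H-TBA and 478 to 748 CPM in L-TBA, and all 12 passed the test as higher in H-TBA. The 13 B and plasma cell markers, from a lineage rich in ER, summed to 385 to 502 CPM in H-TBA and 290 to 1134 CPM in L-TBA, where L-TBA 3 alone held the highest value and the plasma cell receptor Tnfrsf17 had 0 counts in every H-TBA library and in L-TBA 2. The macrophage markers (11 genes) summed to 259 to 310 CPM in H-TBA and 332 to 480 CPM in L-TBA. The stellate cell and fibroblast markers (10 genes) summed to 833 to 950 CPM in H-TBA and 563 to 1008 CPM in L-TBA, and the endothelial markers (10 genes) to 153 to 189.6 CPM in H-TBA and 180.02 to 228 CPM in L-TBA. Over all tested genes 10.7% fell and 13.1% rose. Of the tested markers, 2 fell and 1 rose among 10 for hepatocytes, and 2 fell and 1 rose among 11 for B and plasma cells. Of those 11, 10 had a negative log2 fold change, with a median of -1.87 over the 11. The 1 that rose was Sdc1, with a log2 fold change of 0.62. Every H-TBA sum lay above the sums of L-TBA 1 (290 CPM) and L-TBA 2 (370 CPM), unlike the sign of those 10 genes. The sum includes Sdc1 and does not follow the other genes, so it is not a level of this cell type. The 2 that fell were the immunoglobulin genes Ighm (log2 fold change -2.69 ± 0.69 (SE), adjusted p = 0.0164) and Igkc (log2 fold change -2.16 ± 0.71 (SE), adjusted p = 0.0481), whose groups overlapped. Without L-TBA 3 neither passed: the log2 fold change was -0.91 for Ighm (adjusted p = 0.121, in a range of 0.000864 to 0.122 over the alternatives) and -0.30 for Igkc (adjusted p = 0.664, in a range of 0.00684 to 0.664). No gene of that list fell without H-TBA 2, H-TBA 4 or L-TBA 3, 1 fell without H-TBA 1 or H-TBA 3, and 6 fell without L-TBA 1. For the other types 2 fell among 11 for macrophages, 1 fell and 4 rose among 10 for stellate cells, and 4 fell and 2 rose among 10 for endothelium. Of the hepatocyte markers 1 fell without H-TBA 2, 3 or 4 or L-TBA 2 and 0 fell without L-TBA 1. Of the macrophage markers 4 fell without L-TBA 2 and 1 without L-TBA 3. Without H-TBA 1, 2 stellate cell markers fell and 4 endothelial markers rose. The part of these cell types in the results below was not tested. In RNA from whole tissue, fewer cells of a type and less RNA per cell cannot be told apart.

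Some of the genes share a regulatory sequence, which is shown here because the genes that carry it include the main chaperones. The ER stress element reads CCAAT, then 9 bases of any kind, then CCACG, and is known from promoters of chaperones such as Hspa5, where a CCAAT-binding factor and Atf6 or Xbp1 meet. RefSeq promoters (mouse build GRCm38.p6, searched over the 250 bases before the start, both strands) were at hand for 33 of the 40 genes and not for Atf6, Hyou1, Manf, Sec61a1, Ssr2, Ostc and Derl1. The element was found in 9 of the 33 (27.3%) and in 35 of all 27025 promoters (0.13%), so 25.7% of the promoters that held it belonged to these genes. The matches are given below as read on their own strand, with the CCAAT and CCACG blocks in capitals. Hsp90b1 held 2 of them.
Calr: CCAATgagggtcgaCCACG
Hspa5: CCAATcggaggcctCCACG
Creld2: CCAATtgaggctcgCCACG
Hsp90b1 (first): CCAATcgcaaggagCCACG
Hsp90b1 (second): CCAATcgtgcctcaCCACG
Pdia6: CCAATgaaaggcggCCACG
Canx: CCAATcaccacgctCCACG
Derl3: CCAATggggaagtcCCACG
Dnajc3: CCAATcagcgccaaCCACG
Syvn1: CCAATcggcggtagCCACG

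The promoters of Calr, Hspa5, Creld2 and Hsp90b1, the 4 with the smallest adjusted p among those that hold the element, follow as 250 bases up to the transcription start, on the strand of the gene. Their positions are chr8:84846932-84847181 on the minus strand for Calr, chr2:34771840-34772089 on the plus strand for Hspa5, chr15:88819396-88819645 on the plus strand for Creld2 and chr10:86705445-86705694 on the minus strand for Hsp90b1. Capitals mark the element's blocks, which read ATTGG and CGTGG where the element lies on the opposite strand.
Calr: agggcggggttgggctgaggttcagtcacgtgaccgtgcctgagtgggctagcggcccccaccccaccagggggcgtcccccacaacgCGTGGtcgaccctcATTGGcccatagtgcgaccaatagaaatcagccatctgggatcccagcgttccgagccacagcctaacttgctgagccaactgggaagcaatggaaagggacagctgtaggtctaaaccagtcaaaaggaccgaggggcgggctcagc
Hspa5: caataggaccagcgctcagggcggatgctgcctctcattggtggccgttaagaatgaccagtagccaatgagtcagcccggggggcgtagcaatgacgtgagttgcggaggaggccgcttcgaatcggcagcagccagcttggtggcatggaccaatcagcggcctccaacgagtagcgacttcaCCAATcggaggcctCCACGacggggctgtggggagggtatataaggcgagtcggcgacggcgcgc
Creld2: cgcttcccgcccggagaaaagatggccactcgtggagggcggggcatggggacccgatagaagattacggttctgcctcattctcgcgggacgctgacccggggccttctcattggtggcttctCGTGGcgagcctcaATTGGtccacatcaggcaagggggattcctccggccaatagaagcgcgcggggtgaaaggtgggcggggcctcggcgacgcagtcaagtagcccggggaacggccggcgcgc
Hsp90b1: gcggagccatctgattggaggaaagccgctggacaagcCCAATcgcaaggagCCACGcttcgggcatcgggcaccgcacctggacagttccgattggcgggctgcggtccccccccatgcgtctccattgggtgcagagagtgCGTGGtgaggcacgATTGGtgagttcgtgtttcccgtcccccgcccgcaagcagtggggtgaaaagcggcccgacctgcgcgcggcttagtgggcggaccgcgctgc

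With only CCA in place of CCACG the match was found in 15 of the 33 promoters (45.5%), against 303 of all 27025 (1.12%); this wider motif contains the full one. The second type of element, ATTGG, 1 base of any kind and CCACG, was found in 1, that of Herpud1, and in 0.037% of all promoters. The letters TGACGTGG, bound by Xbp1, were found in 1, that of Txndc5, and in 0.603% of all promoters. A match describes the letters in these windows and is not evidence that a factor binds there.

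**Figure D1:**
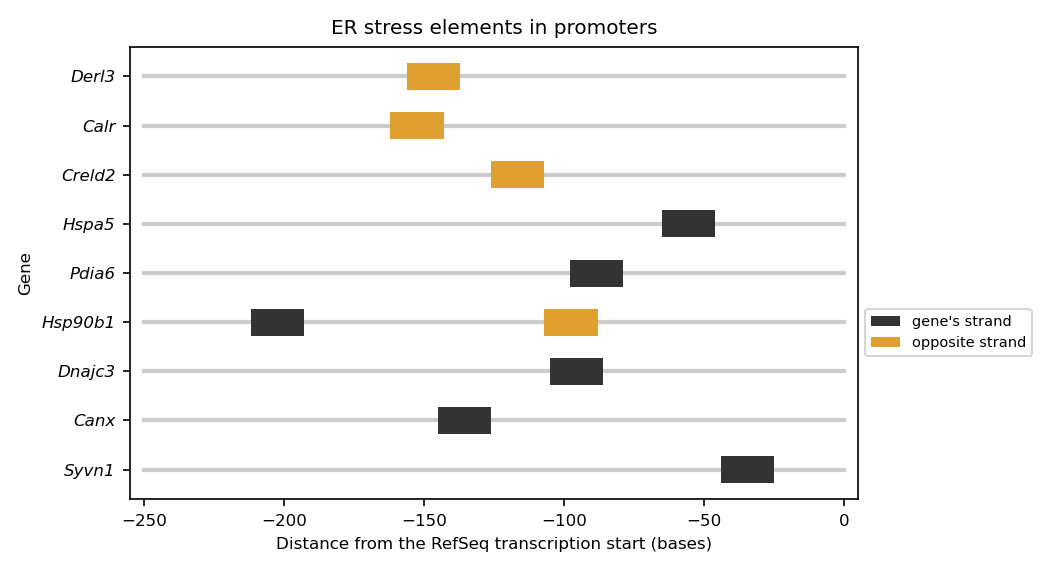
Position of each ER stress element in the 250 bases before the RefSeq transcription start of the 9 genes that hold one (x axis, distance from the start in bases; dark bars, the gene's strand; light bars, the opposite strand). Genes are ordered from the most negative log2 fold change at the top, Derl3 at -1.49, to Syvn1 at -0.35.

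ER folding and quality control genes were mostly lower in H-TBA libraries. Of the 40 genes, 27 fell (67.5%), 2 rose and 11 did not pass an adjusted p of 0.05, where 10.7% of the 15249 tested genes fell and 13.1% rose. The log2 fold change was negative for 36 of the 40, with a median of -0.36 and a range of -1.49 to 0.41, beside a median of 0.00 over all tested genes. The lowest value was that of Derl3, a gene near the floor that entered the test only through its L-TBA counts. Levels of the 2 groups did not overlap for the 27 that fell and the 2 that rose; over all tested genes 16.3% were lower and 17.2% higher with no overlap. The 40 genes summed to 5424, 5232, 4572 and 5001 CPM in the H-TBA libraries, against 6740, 7525 and 6370 CPM in the L-TBA libraries, so every H-TBA library lay below every L-TBA library. Within the groups the libraries were not level: H-TBA 3 was the lowest H-TBA library for 25 genes, and L-TBA 2 was the highest of all 7 libraries for 30. Without L-TBA 2 the number that fell was 17, without H-TBA 1 it was 27 and without L-TBA 3 it was 24. When libraries were scaled by their totals, the median of all genes moved by 0.16, 3117 of the 15249 tested genes were higher and 832 lower, against 2003 and 1635 with TMM scaling, and 16 of the 40 genes were lower and 2 higher, while the median of the 40 less that of all genes was -0.37, against -0.36 before.

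**Figure D2:**
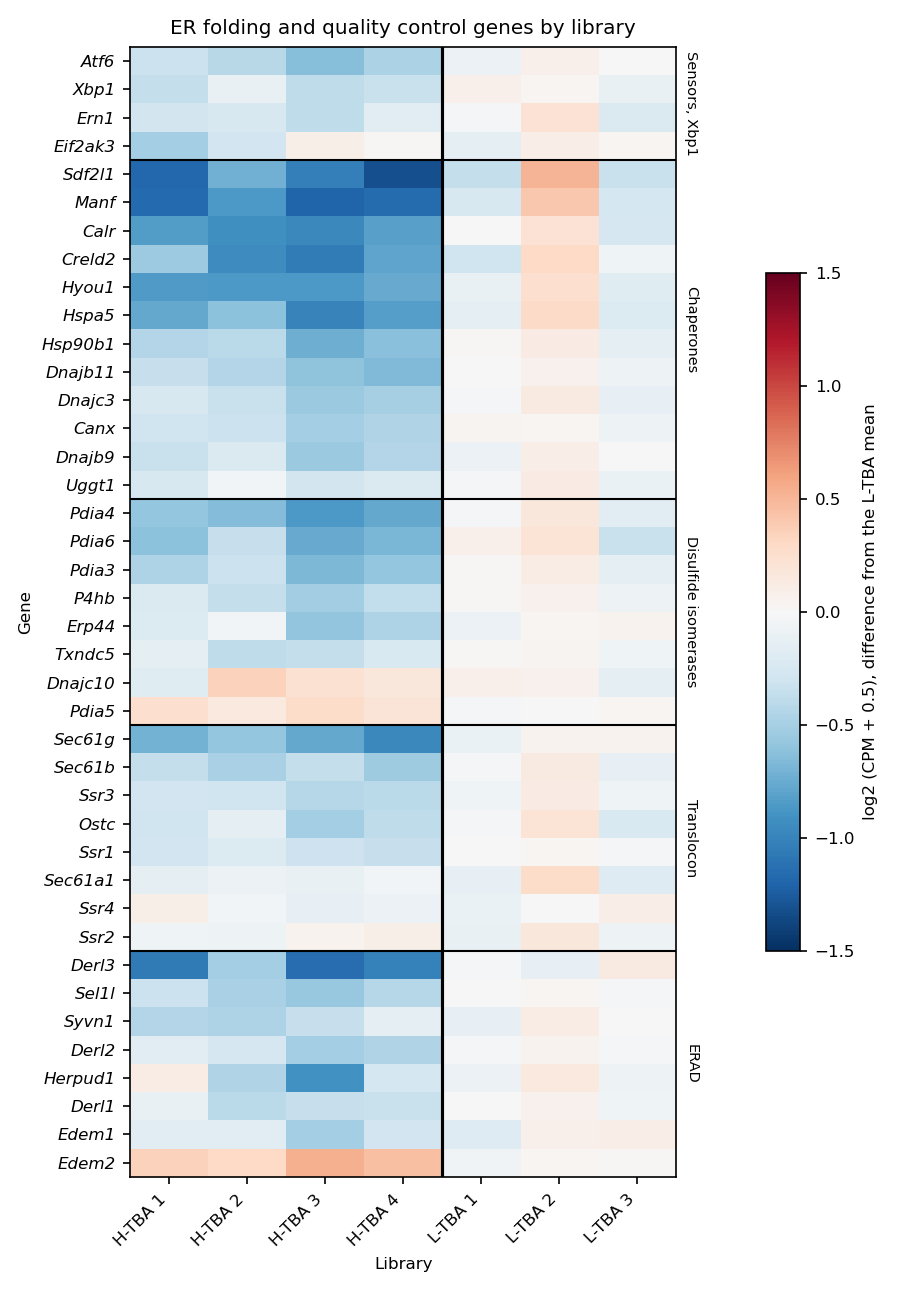
Difference of log2 (CPM + 0.5) from the L-TBA mean for each of the 40 genes (rows, grouped by role) in each library (columns, H-TBA left of the line and L-TBA right of it); blue is lower and red is higher. The median over the 40 genes was -0.31, -0.34, -0.52 and -0.43 in the H-TBA libraries and -0.03, 0.10 and -0.07 in the L-TBA libraries.

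**Figure D3:**
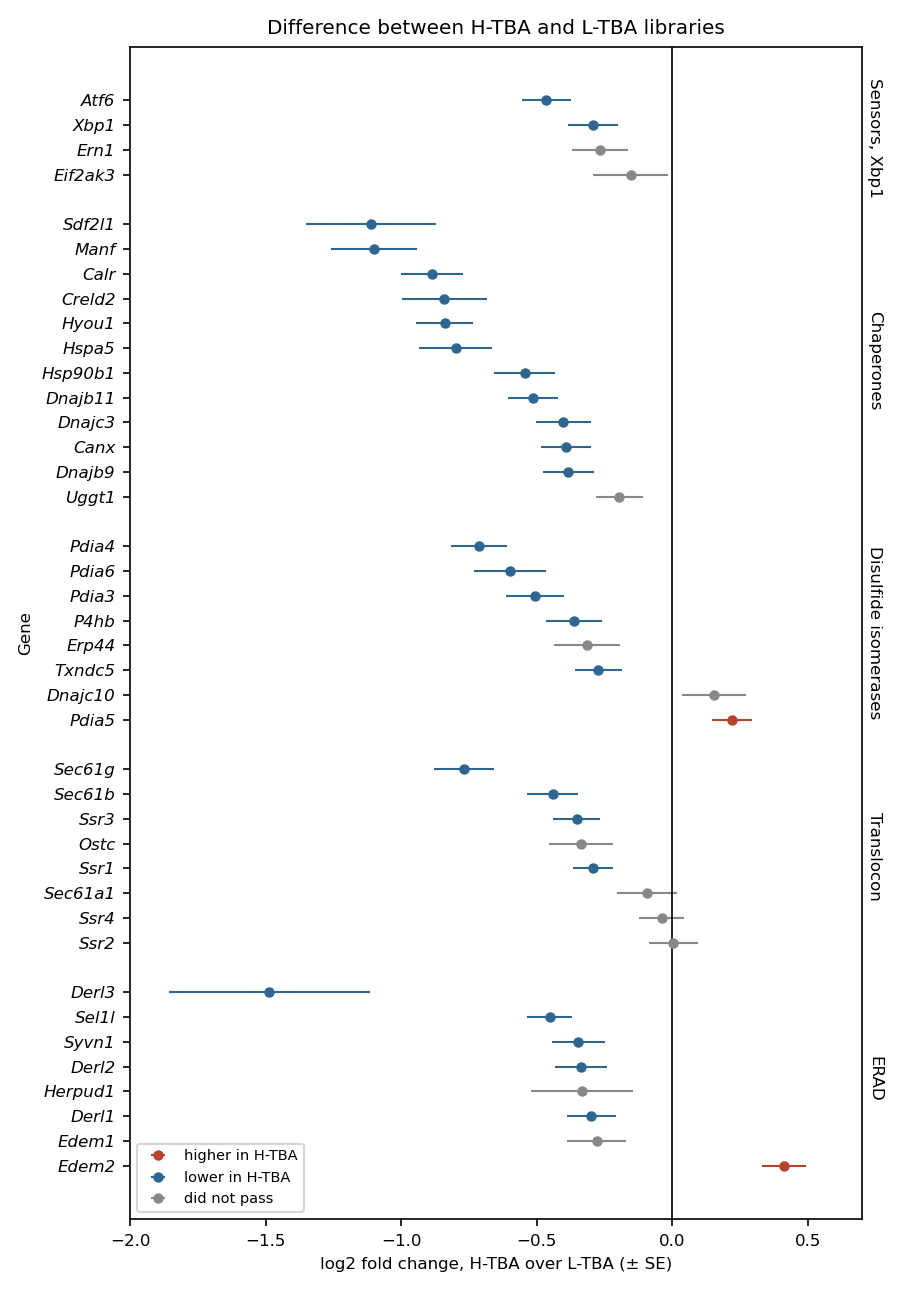
The log2 fold change of each gene, H-TBA over L-TBA, with its standard error (bars), grouped by role; colour gives the call. The 12 chaperones and co-chaperones all lie below 0, and Edem2 and Pdia5 are the 2 genes called above it.

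Both the sensor Atf6 and the transcription factor Xbp1 fell, while Ern1 and Eif2ak3 did not pass, and the median log2 fold change of the 4 was -0.28. Counts of 1 lower gene were had with library totals, with no filter and without H-TBA 1, 3 or 4 or L-TBA 1 or 2, and 3 were lower without L-TBA 3. Atf6, which is cut from its membrane anchor under stress to become a transcription factor, had 71, 66.7, 57.1 and 64.1 CPM in the H-TBA libraries, against 84, 94.2 and 89.4 CPM in the L-TBA libraries (log2 fold change -0.46 ± 0.09 (SE), adjusted p = 0.00371). Its groups were well apart. Xbp1, whose mRNA is spliced by Ern1 into the form that makes the active factor, had 156, 185, 154 and 159 CPM in the H-TBA libraries, against 210.2, 204 and 185 CPM in the L-TBA libraries (log2 fold change -0.29 ± 0.09 (SE), adjusted p = 0.0422). All 4 H-TBA values were under the lowest L-TBA value, but H-TBA 2 at 184.6 CPM came within 1 CPM of L-TBA 3 at 185.3 CPM. Numbers in brackets after an alternative are adjusted p. The call of Xbp1 was lost with library totals (0.301), with no filter (0.0529), without H-TBA 1, 3 or 4 (0.057, 0.0933 and 0.106) and without L-TBA 1 or 2 (0.149 and 0.119). For Xbp1 the adjusted p ranged from 0.0164 to 0.301 over the alternatives. Counts per gene do not separate spliced from unspliced Xbp1, so the active form was not measured. Ern1, the kinase and RNase that splices Xbp1, had 49.9, 51.3, 46.4 and 53.6 CPM in the H-TBA libraries, against 59.4, 70.2 and 51.8 CPM in the L-TBA libraries (log2 fold change -0.27 ± 0.10 (SE), adjusted p = 0.0851). Its groups overlapped in that H-TBA 4 was above L-TBA 3, and the threshold was passed without L-TBA 3 (0.0319, in a range of 0.0319 to 0.489 over the alternatives). Eif2ak3, the kinase that slows translation by phosphorylating eIF2, had 22.5, 26.5, 34.5 and 32.7 CPM in the H-TBA libraries, against 29.4, 34.6 and 33.2 CPM in the L-TBA libraries (log2 fold change -0.15 ± 0.14 (SE), adjusted p = 0.462), with the groups overlapping.

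Chaperones and co-chaperones were lower almost throughout: 11 of 12 fell, none rose and the median log2 fold change was -0.67. They summed to 1745, 1772, 1496 and 1619 CPM in the H-TBA libraries, against 2528, 2960.3 and 2317 CPM in the L-TBA libraries. Hspa5 (BiP), the main Hsp70 of the ER and the protein that holds the sensors inactive, had 336, 372, 285 and 322 CPM in the H-TBA libraries, against 521, 698 and 497 CPM in the L-TBA libraries (log2 fold change -0.80 ± 0.13 (SE), adjusted p = 0.00186). Every H-TBA library was below every L-TBA library, and L-TBA 2 stood highest. Hsp90b1 (GRP94), the Hsp90 of the ER, had 433, 440.4, 350.4 and 379 CPM in the H-TBA libraries, against 591, 635 and 528 CPM in the L-TBA libraries (log2 fold change -0.54 ± 0.11 (SE), adjusted p = 0.00521). Hyou1, a large Hsp70 relative that exchanges the nucleotide of Hspa5, had 57.6, 57.1, 57.1 and 61.7 CPM in the H-TBA libraries, against 96.5, 125 and 92 CPM in the L-TBA libraries (log2 fold change -0.84 ± 0.11 (SE), adjusted p = 0.00044). The H-TBA values of Hyou1 spanned less than 5 CPM and were all far below the L-TBA values. Hspa5 carries 1 and Hsp90b1 carries 2 of the elements printed above. Hspa5 stood at 0.777 to 0.848 of the CPM of Hsp90b1 in H-TBA and 0.882 to 1.10 of it in L-TBA, a pair chosen after the values were seen and given with no test.

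The J-domain partners of Hspa5 fell as well. Dnajb9, which brings Hspa5 to misfolded clients and to Ern1, had 46.5, 50.4, 39.6 and 43.2 CPM in the H-TBA libraries, against 54.8, 62.5 and 58.3 CPM in the L-TBA libraries (log2 fold change -0.38 ± 0.09 (SE), adjusted p = 0.013). Dnajb11, a partner that binds new chains at the translocon, had 56.3, 52.7, 47.1 and 45 CPM in the H-TBA libraries, against 72, 74.9 and 68.1 CPM in the L-TBA libraries (log2 fold change -0.51 ± 0.09 (SE), adjusted p = 0.00238). Dnajc3, which holds unfolded chains and can restrain Eif2ak3, had 156, 146, 126 and 131 CPM in the H-TBA libraries, against 182, 202 and 169 CPM in the L-TBA libraries (log2 fold change -0.40 ± 0.10 (SE), adjusted p = 0.0145). None of the 3 overlapped between groups, and L-TBA 2 was the highest library for each. The call of Dnajb9 was lost with library totals (0.0747) and without L-TBA 2 (0.06). For Dnajb9 the adjusted p ranged from 0.00595 to 0.0747 over the alternatives. The Dnajc3 call was lost with library totals (0.0578), without H-TBA 4 (0.0514) and without L-TBA 2 (0.0685). For Dnajc3 the adjusted p ranged from 0.00211 to 0.0685 over the alternatives.

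Among small helpers of the stress response were the most negative log2 fold changes of the chaperone group. Sdf2l1, which works with Dnajb11 to keep clients soluble, had 5.14, 7.23, 5.77 and 4.61 CPM in the H-TBA libraries, against 9.41, 17.7 and 9.62 CPM in the L-TBA libraries (log2 fold change -1.11 ± 0.24 (SE), adjusted p = 0.00689), so H-TBA libraries held 0.463 times the L-TBA level. Manf, a stress-induced protein that binds Hspa5 and is partly secreted, had 36.1, 44.8, 35 and 36.2 CPM in the H-TBA libraries, against 68.6, 108 and 67.6 CPM in the L-TBA libraries (log2 fold change -1.10 ± 0.16 (SE), adjusted p = 0.000807), or 0.466 times the L-TBA level. Creld2, a stress-induced protein with disulfide isomerase activity, had 20.3, 15.3, 14.1 and 17.1 CPM in the H-TBA libraries, against 24.2, 37 and 28.5 CPM in the L-TBA libraries (log2 fold change -0.84 ± 0.16 (SE), adjusted p = 0.00309). The groups stood apart for all 3. The H-TBA values of Manf were close together apart from H-TBA 2 at 44.8 CPM.

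The lectin chaperones hold glycoproteins by their trimmed sugar. Calr (calreticulin), the soluble one, had 300.0, 285, 275 and 307 CPM in the H-TBA libraries, against 535, 626 and 453 CPM in the L-TBA libraries (log2 fold change -0.88 ± 0.11 (SE), adjusted p = 0.000531). Canx (calnexin), its membrane-bound relative, had 256, 252, 221 and 231 CPM in the H-TBA libraries, against 325, 321 and 299 CPM in the L-TBA libraries (log2 fold change -0.39 ± 0.09 (SE), adjusted p = 0.00976). Neither overlapped, and the ratio of Calr to Canx in CPM was 1.13 to 1.33 in H-TBA and 1.52 to 1.95 in L-TBA, again a pair chosen after the values were seen. Uggt1, which puts a glucose back on chains that are not yet folded and so returns them to Calr and Canx, did not pass (40.6 to 47.7 CPM in H-TBA and 45.9 to 53.4 CPM in L-TBA; log2 fold change -0.19 ± 0.09 (SE), adjusted p = 0.133). It was the 1 chaperone gene whose groups overlapped.

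**Figure D4:**
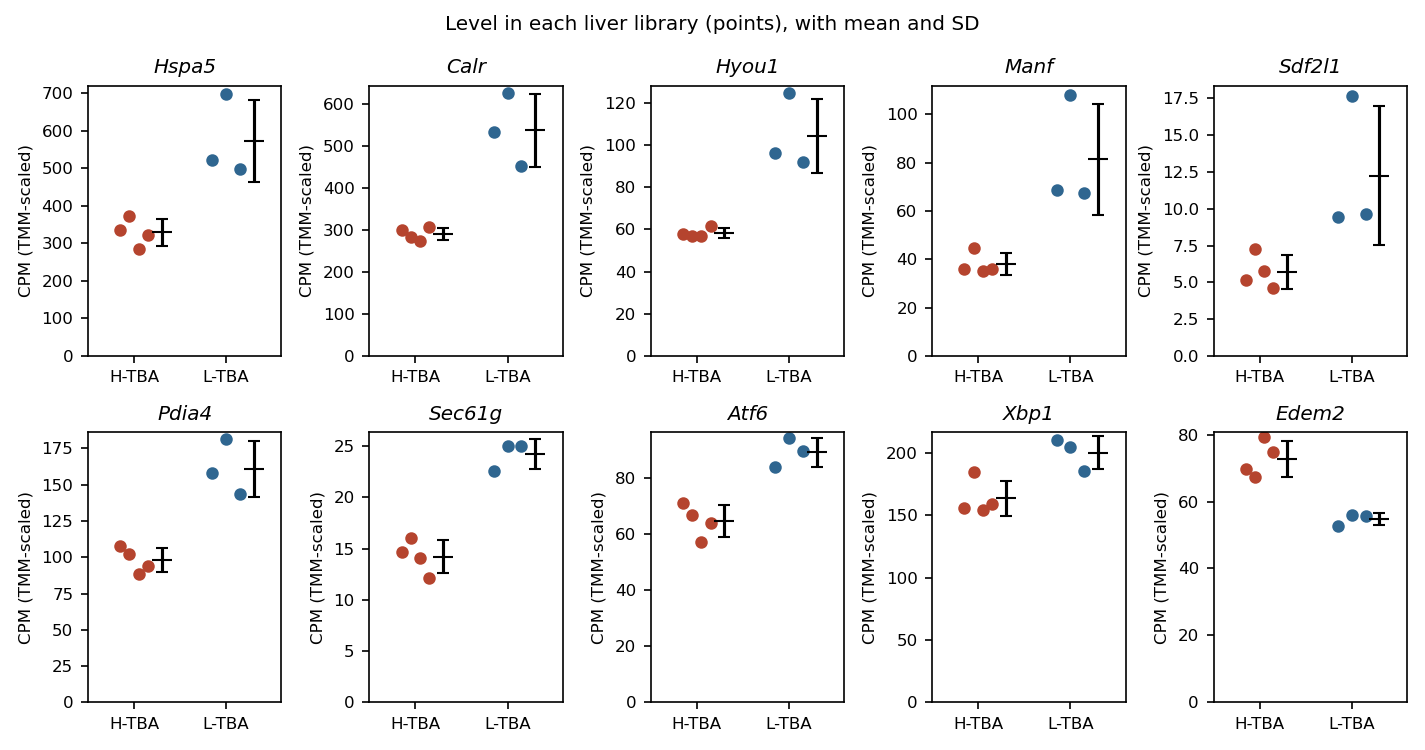
TMM-scaled CPM of 10 genes in each library (points; 4 H-TBA and 3 L-TBA), with the mean and SD beside them. Hspa5 spanned 285 to 372 CPM in H-TBA and 497 to 698 CPM in L-TBA, and Edem2, at the end, is the 1 gene of these 10 with the H-TBA points above.

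Of the 8 disulfide isomerases and related proteins, 5 fell, 1 rose and 2 did not pass, with a median log2 fold change of -0.34; 3 fell with library totals and without H-TBA 3 or 4 or L-TBA 1 or 2. P4hb, the classical protein disulfide isomerase and a subunit of both collagen prolyl hydroxylase and the microsomal triglyceride transfer protein that loads lipoproteins, had 1070.0, 973, 869 and 962 CPM in the H-TBA libraries, against 1256, 1300.4 and 1179 CPM in the L-TBA libraries (log2 fold change -0.36 ± 0.10 (SE), adjusted p = 0.0267). It had the highest level per kilobase of exon of the 40 genes, 338 in H-TBA and 435 in L-TBA CPM per kilobase. After it came, on the same scale, Herpud1 with 132 in H-TBA and 166 in L-TBA, Calr with 101 in H-TBA and 187 in L-TBA, Hsp90b1 with 99.4 in H-TBA and 145 in L-TBA and Hspa5 with 77.8 in H-TBA and 135 in L-TBA, so that Calr passed above Herpud1 in L-TBA. Pdia3, which forms bonds in the glycoproteins held by Calr and Canx, had 229.6, 253, 198 and 210.3 CPM in the H-TBA libraries, against 319, 341 and 288 CPM in the L-TBA libraries (log2 fold change -0.51 ± 0.11 (SE), adjusted p = 0.00598). Pdia4, an isomerase found in complexes with Hspa5, had 108, 102, 88.6 and 94.3 CPM in the H-TBA libraries, against 158, 181 and 143 CPM in the L-TBA libraries (log2 fold change -0.71 ± 0.10 (SE), adjusted p = 0.000784). These 3 did not overlap, and Pdia4 fell the most of the isomerases. Pdia6, an isomerase that also ends Ern1 signalling, had 85.6, 103, 78.1 and 81.5 CPM in the H-TBA libraries, against 139, 152 and 104 CPM in the L-TBA libraries (log2 fold change -0.60 ± 0.13 (SE), adjusted p = 0.00797). Txndc5, an isomerase with several thioredoxin domains, had 152, 128, 130.3 and 143 CPM in the H-TBA libraries, against 169, 173 and 160.0 CPM in the L-TBA libraries (log2 fold change -0.27 ± 0.09 (SE), adjusted p = 0.0431). For Pdia6 and Txndc5 too, every H-TBA value was below every L-TBA value. The call of P4hb was lost with library totals (0.083), without H-TBA 2, 3 or 4 (0.0656, 0.0576 and 0.0747) and without L-TBA 1 or 2 (0.0898 and 0.0937). For P4hb the adjusted p ranged from 0.000915 to 0.0937 over the alternatives. The call of Txndc5 was lost with library totals (0.312), with no filter (0.0625), without H-TBA 2, 3 or 4 (0.11, 0.0952 and 0.0769) and without L-TBA 1, 2 or 3 (0.12, 0.132 and 0.0695). For Txndc5 the adjusted p ranged from 0.0141 to 0.312 over the alternatives.

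Pdia5, another isomerase, was higher. It had 46.1, 42.9, 46.8 and 44.4 CPM in the H-TBA libraries, against 37.8, 38.8 and 39.4 CPM in the L-TBA libraries (log2 fold change 0.22 ± 0.07 (SE), adjusted p = 0.0486), with no overlap between groups. Its call was lost with DESeq2 size factors (0.0555), by DESeq2 (0.11), with no filter (0.0988), with the length offset (0.056), without H-TBA 1, 2, 3 or 4 (0.0651, 0.0525, 0.101 and 0.0792) and without L-TBA 1, 2 or 3 (0.158, 0.127 and 0.11). For Pdia5 the adjusted p ranged from 0.00924 to 0.158 over the alternatives. In CPM, Pdia5 stood at 0.420 to 0.529 of Pdia4 in H-TBA and 0.214 to 0.274 of it in L-TBA; the pair was chosen after the values were seen. Dnajc10, a reductase that opens disulfides before degradation, and Erp44, which retrieves enzymes from the Golgi, did not pass. Dnajc10 ranged over 39.5 to 57 CPM in H-TBA and 40.4 to 47.1 CPM in L-TBA (log2 fold change 0.15 ± 0.12 (SE), adjusted p = 0.386). Erp44 ranged over 37.4 to 55.1 CPM in H-TBA and 53.3 to 59 CPM in L-TBA (log2 fold change -0.31 ± 0.12 (SE), adjusted p = 0.0856). Both overlapped, and Erp44 passed by limma-voom (0.0489) and without H-TBA 2 (0.0269). For Erp44 the adjusted p ranged from 0.0269 to 0.272 over the alternatives.

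At the translocon 4 of 8 genes fell, none rose and the median log2 fold change was -0.31; 2 fell without L-TBA 2 and 1 with library totals. The small Sec61 subunits fell, and the pore did not pass. Sec61a1, which forms the channel, had 119.8, 123, 121 and 128 CPM in the H-TBA libraries, against 120.4, 159 and 114 CPM in the L-TBA libraries (log2 fold change -0.09 ± 0.11 (SE), adjusted p = 0.585), with the groups overlapping and the sign turning without L-TBA 2 (log2 fold change 0.06) and with library totals (0.06). Sec61b, a small tail-anchored subunit, had 24.1, 21.9, 24 and 21.1 CPM in the H-TBA libraries, against 30.1, 34.1 and 28.4 CPM in the L-TBA libraries (log2 fold change -0.44 ± 0.10 (SE), adjusted p = 0.00672). Sec61g, the small subunit that clamps the channel, had 14.7, 16, 14.1 and 12.1 CPM in the H-TBA libraries, against 22.5, 25 and 25 CPM in the L-TBA libraries (log2 fold change -0.77 ± 0.11 (SE), adjusted p = 0.000793). Both small subunits were lower in every H-TBA library than in any L-TBA library. Per CPM of Sec61a1, Sec61g was 0.0952 to 0.130 in H-TBA and 0.158 to 0.219 in L-TBA, and Sec61b was 0.166 to 0.201 in H-TBA and 0.215 to 0.250 in L-TBA; the ratios were chosen after the values were seen. The call of Sec61b was lost with library totals (0.0765). For Sec61b the adjusted p ranged from 0.00293 to 0.0765 over the alternatives. The fall of Sec61g passed under each of the 16 alternatives.

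The signal sequence receptor (TRAP) complex sits beside the channel and helps some chains to enter. Its subunit Ssr1 had 81.9, 87.1, 80.7 and 78.6 CPM in the H-TBA libraries, against 100.5, 102 and 98.6 CPM in the L-TBA libraries (log2 fold change -0.29 ± 0.07 (SE), adjusted p = 0.0152). Ssr3 had 175, 173, 158 and 161 CPM in the H-TBA libraries, against 204, 232 and 203 CPM in the L-TBA libraries (log2 fold change -0.35 ± 0.09 (SE), adjusted p = 0.0132). Neither overlapped between groups, and the other two subunits did not pass. Ssr2 ranged over 51 to 57.4 CPM in H-TBA and 49.9 to 60.9 CPM in L-TBA (log2 fold change 0.00 ± 0.09 (SE), adjusted p = 0.98). Ssr4 ranged over 51.4 to 59.9 CPM in H-TBA and 52.3 to 60.1 CPM in L-TBA (log2 fold change -0.04 ± 0.08 (SE), adjusted p = 0.781), and both overlapped. The ratio of Ssr2 to Ssr1 in CPM overlapped, at 0.586 to 0.731 in H-TBA and 0.497 to 0.597 in L-TBA, while that of Ssr4 to Ssr3 was 0.315 to 0.342 in H-TBA and 0.242 to 0.296 in L-TBA; both were chosen after the values were seen. The sign of Ssr4 turned with library totals (log2 fold change 0.12) and without L-TBA 3 (0.01), and that of Ssr2, near 0, turned under 7 alternatives. The call of Ssr1 was lost with library totals (0.212) and without L-TBA 1 or 2 (0.0527 and 0.0585). For Ssr1 the adjusted p ranged from 0.00389 to 0.212 over the alternatives. The call of Ssr3 was lost with library totals (0.0927) and without L-TBA 2 (0.0671). For Ssr3 the adjusted p ranged from 0.000831 to 0.0927 over the alternatives. Ostc, a subunit of the oligosaccharyltransferase that transfers the N-glycan, ranged over 28.6 to 37 CPM in H-TBA and 35.1 to 47.5 CPM in L-TBA (log2 fold change -0.34 ± 0.12 (SE), adjusted p = 0.0577) and passed by limma-voom (0.047), with no filter (0.043), with a robust fit (0.0496), without H-TBA 2 (0.0454) and without L-TBA 3 (0.0281). For Ostc the adjusted p ranged from 0.0281 to 0.276 over the alternatives.

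Of the 8 ERAD genes 5 fell, 1 rose and 2 did not pass, with a median log2 fold change of -0.34. Sel1l, the adaptor that carries substrates to the ligase Syvn1, had 115, 103, 96.8 and 107 CPM in the H-TBA libraries, against 144, 147 and 142 CPM in the L-TBA libraries (log2 fold change -0.45 ± 0.08 (SE), adjusted p = 0.00282). Syvn1 (HRD1), the ubiquitin ligase of the main ERAD complex, had 52.3, 51.4, 55.9 and 64.2 CPM in the H-TBA libraries, against 65.1, 77.1 and 71.4 CPM in the L-TBA libraries (log2 fold change -0.35 ± 0.10 (SE), adjusted p = 0.0239). The groups were apart for both. The derlins, membrane proteins through which substrates leave the ER, all fell. Derl1 had 164, 134, 139.9 and 140.5 CPM in the H-TBA libraries, against 178, 185 and 170.2 CPM in the L-TBA libraries (log2 fold change -0.30 ± 0.09 (SE), adjusted p = 0.035). Derl2 had 82.9, 77.9, 65 and 67.7 CPM in the H-TBA libraries, against 90.5, 96.3 and 91.2 CPM in the L-TBA libraries (log2 fold change -0.34 ± 0.10 (SE), adjusted p = 0.0257). Derl3, the derlin of secretory tissues, had 0.374, 0.782, 0.325 and 0.405 CPM in the H-TBA libraries, against 1.3, 1.17 and 1.5 CPM in the L-TBA libraries (log2 fold change -1.49 ± 0.37 (SE), adjusted p = 0.014), with no overlap. Its log2 fold change was the most negative of the 40, but it was also the least abundant per kilobase and rested on 4, 8, 4 and 5 counts in the H-TBA libraries and 15, 13 and 15 counts in the L-TBA libraries. All its H-TBA counts were under the minimum count of 10, so it entered the test only through the group where it was high. Without L-TBA 3 its call was lost (0.0551, in a range of 0.00897 to 0.0551 over the alternatives). The call of Syvn1 was lost with library totals (0.252), without H-TBA 2 or 3 (0.069 and 0.0506) and without L-TBA 2 or 3 (0.103 and 0.0655). For Syvn1 the adjusted p ranged from 0.0117 to 0.252 over the alternatives. The call of Derl1 was lost with library totals (0.22), without H-TBA 2, 3 or 4 (0.0934, 0.0724 and 0.0923) and without L-TBA 1, 2 or 3 (0.0943, 0.118 and 0.0603). For Derl1 the adjusted p ranged from 0.00557 to 0.22 over the alternatives. The call of Derl2 was lost with library totals (0.105), without H-TBA 3 or 4 (0.0622 and 0.0788) and without L-TBA 1, 2 or 3 (0.0603, 0.0893 and 0.059). For Derl2 the adjusted p ranged from 0.00581 to 0.105 over the alternatives. Of the 8 genes 1 fell without L-TBA 3, 2 fell without H-TBA 3 or L-TBA 2 and with library totals, and 3 fell without H-TBA 2, H-TBA 4 or L-TBA 1.

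Edem2, which begins the trimming of mannose that marks a glycoprotein for disposal, was higher: it had 69.8, 67.2, 79.3 and 74.9 CPM in the H-TBA libraries, against 52.6, 55.9 and 55.6 CPM in the L-TBA libraries (log2 fold change 0.41 ± 0.08 (SE), adjusted p = 0.00422). All 4 H-TBA libraries were above all 3 L-TBA libraries, and the call was kept under each of the 16 alternatives. Its relative Edem1 ranged over 108 to 137 CPM in H-TBA and 134 to 165 CPM in L-TBA (log2 fold change -0.28 ± 0.11 (SE), adjusted p = 0.0883), overlapping. The ratio of Edem2 to Edem1 in CPM was 0.494 to 0.735 in H-TBA and 0.337 to 0.392 in L-TBA, a pair chosen after the values were seen. The ratio of Derl1 to Derl2 overlapped, at 1.72 to 2.15 in H-TBA and 1.87 to 1.97 in L-TBA. Herpud1, a short-lived subunit of the Syvn1 complex and strongly induced by ER stress, ranged over 205 to 418 CPM in H-TBA and 364 to 429.9 CPM in L-TBA (log2 fold change -0.33 ± 0.19 (SE), adjusted p = 0.233). Its groups overlapped through H-TBA 1, and it passed without H-TBA 1 (0.022, in a range of 0.022 to 0.471 over the alternatives). The summed CPM of the 8 genes also overlapped, at 750 to 1040.1 CPM in H-TBA and 1029 to 1154 CPM in L-TBA.

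The 9 genes with the ER stress element in their promoter all fell. Their log2 fold change ranged from -1.49 to -0.35 with a median of -0.60. The lowest of them, Derl3, entered the test only through its L-TBA counts. Of the 24 genes with a promoter but no match, 14 fell and their median log2 fold change was -0.32. Both counts moved with the libraries: without L-TBA 2, 7 of the 9 and 7 of the 24 fell, without L-TBA 1 it was 9 and 9, and with library totals 7 and 6. With the replicate number as a term it was 6 and 6. Among 11 other tested genes in the liver data with the element, 3 fell and 1 rose, with a median of 0.04. Most of the 9 genes are chaperones or co-chaperones, a role with a median of -0.67 over its 12 genes. Element and role therefore cannot be told apart here. No test was made of these differences, since the genes were chosen with results known.

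Other genes of the same pathways were taken from 9 lists of known members. Over all tested genes 10.7% fell and 13.1% rose. The share that fell was 30.8% for the integrated stress response, 27.3% for the other oligosaccharyltransferase subunits and 25% for the COPII coat. It was 16.7% for the other folding enzymes and 15% for both the other ER stress regulators and the heat shock proteins outside the ER. It was 11.1% for the ER-phagy receptors, 10.3% for the other ERAD genes and 3.23% for targeting and translocation. The integrated stress response, which Eif2ak3 starts through the transcription factor Atf4, gave 8 lower and 4 higher of 26 with a median log2 fold change of -0.23; 5 were lower without H-TBA 2, L-TBA 1 or L-TBA 2. Cth, an enzyme of cysteine synthesis, rose (log2 fold change 1.52 ± 0.16 (SE), adjusted p = 0.000195), as did Ddit4, an inhibitor of mTORC1 (log2 fold change 0.95 ± 0.11 (SE), adjusted p = 0.000315), and Fgf21, a fasting hormone of liver, fell (log2 fold change -0.92 ± 0.13 (SE), adjusted p = 0.000798). Atf4 itself did not pass (log2 fold change -0.23 ± 0.08 (SE), adjusted p = 0.0585), although it did by DESeq2 (0.0453), by limma-voom (0.0276) and without H-TBA 1 (0.0392). For Atf4 the adjusted p ranged from 0.0276 to 0.551 over the alternatives. Ddit3 (CHOP), the factor of stress-induced cell death, had 12 ± 3.65 CPM in H-TBA libraries (SD, n = 4 libraries) and 14.8 ± 1.72 CPM in L-TBA libraries (SD, n = 3 libraries) (log2 fold change -0.31 ± 0.21 (SE), adjusted p = 0.302). Its target Trib3, a pseudokinase, had 23.6 ± 6.66 CPM in H-TBA libraries (SD, n = 4 libraries) and 30.6 ± 7.26 CPM in L-TBA libraries (SD, n = 3 libraries) (log2 fold change -0.39 ± 0.21 (SE), adjusted p = 0.206). Asns, an Atf4 target that makes asparagine, had 3.08 ± 1.19 CPM in H-TBA libraries (SD, n = 4 libraries) and 2.0 ± 0.276 CPM in L-TBA libraries (SD, n = 3 libraries) (log2 fold change 0.62 ± 0.33 (SE), adjusted p = 0.194) and passed without H-TBA 2 (0.038, in a range of 0.038 to 0.413). None of Ddit3, Trib3 and Asns passed with all 7 libraries. Of 20 other ER stress regulators 3 fell and none rose, with a median of -0.10. These were Eif2ak2, a kinase of eIF2 that senses double-stranded RNA (-0.43 ± 0.11, adjusted p = 0.0127), Ppp1r15b, which dephosphorylates eIF2 (-0.34 ± 0.09, adjusted p = 0.0199), and Tmbim6, a membrane protein that limits Ern1 (-0.32 ± 0.10, adjusted p = 0.0342), where values are log2 fold changes with SE. The Eif2ak2 call was lost with library totals (0.0867) and without L-TBA 3 (0.0537). For Eif2ak2 the adjusted p ranged from 0.0084 to 0.0867 over the alternatives. The Ppp1r15b call was lost with library totals (0.135), without H-TBA 4 (0.0544) and without L-TBA 1 (0.102). For Ppp1r15b the adjusted p ranged from 0.00678 to 0.135 over the alternatives. The Tmbim6 call was lost with library totals (0.127), without H-TBA 2, 3 or 4 (0.0868, 0.0622 and 0.0982) and without L-TBA 1, 2 or 3 (0.133, 0.0681 and 0.0827). For Tmbim6 the adjusted p ranged from 0.000289 to 0.133 over the alternatives. Only 1 of the 20 fell without H-TBA 4, L-TBA 1 or L-TBA 3, and 1 rose without H-TBA 1. Creb3l3, an ER-anchored transcription factor of liver, did not pass (log2 fold change -0.06 ± 0.09 (SE), adjusted p = 0.681) and its sign turned with library totals (0.09).

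Among 36 other folding enzymes 6 fell and 1 rose, with a median log2 fold change of -0.05. Ero1lb, an oxidase that recharges disulfide isomerases, fell (log2 fold change -0.70 ± 0.13 (SE), adjusted p = 0.00339). Its relative Ero1l did not pass (log2 fold change 0.01 ± 0.10 (SE), adjusted p = 0.956), with the groups overlapping. Mcfd2, a cargo receptor for clotting factors, fell (log2 fold change -0.34 ± 0.09 (SE), adjusted p = 0.0174), and Fkbp10, a collagen chaperone, rose (log2 fold change 1.24 ± 0.21 (SE), adjusted p = 0.00173). The call of Mcfd2 was lost with library totals (0.126), without H-TBA 4 (0.0566) and without L-TBA 1 or 2 (0.0571 and 0.0631). For Mcfd2 the adjusted p ranged from 0.0015 to 0.126 over the alternatives. The number that fell was 3 without H-TBA 2 or L-TBA 3, 2 without H-TBA 3 or H-TBA 4 and 1 without L-TBA 1 or L-TBA 2, and 3 rose without H-TBA 1 and 2 without H-TBA 4. Of 11 other oligosaccharyltransferase subunits 3 fell and 1 rose (2 without H-TBA 1). The small subunits Ost4 (-0.50 ± 0.08, adjusted p = 0.00189) and Tmem258 (-0.56 ± 0.12, adjusted p = 0.00567) were among those that fell. Tusc3, an oxidoreductase subunit, rose (0.46 ± 0.10, adjusted p = 0.00864), while its relative Magt1 fell (-0.49 ± 0.11, adjusted p = 0.00903). Of 31 other targeting and translocation genes only Srpr, the receptor of the signal recognition particle, fell (-0.28 ± 0.08, adjusted p = 0.0202), and its call was lost with library totals (0.249), without H-TBA 2 (0.0505) and without L-TBA 1 or 2 (0.0555 and 0.0894). For Srpr the adjusted p ranged from 0.00224 to 0.249 over the alternatives. Without H-TBA 1, 3 genes of that list fell.

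Of 29 other ERAD genes 3 fell and 1 rose, with a median log2 fold change of -0.08. The share that fell, 10.3%, was near the 10.7% over all tested genes. Rad23b, a shuttle to the proteasome (-0.47 ± 0.09, adjusted p = 0.0045), and Ubxn4, a cofactor of the segregase p97 (-0.38 ± 0.10, adjusted p = 0.0172), were among those that fell, and Os9, a lectin of the Syvn1 complex, rose (0.33 ± 0.09, adjusted p = 0.0179). The call of Os9 was lost without L-TBA 1, 2 or 3 (0.0598, 0.0743 and 0.0613). For Os9 the adjusted p ranged from 0.00121 to 0.0743 over the alternatives. The Ubxn4 call was lost with library totals (0.051), without H-TBA 4 (0.0565) and without L-TBA 1 or 3 (0.0657 and 0.0504). For Ubxn4 the adjusted p ranged from 0.00173 to 0.0657 over the alternatives. Without H-TBA 4 or L-TBA 3 only 1 of the list fell. The COPII coat, which buds cargo from the ER, gave 4 lower and none higher of 16, with a median of -0.24: Sec24a (-0.58 ± 0.11, adjusted p = 0.0029), Sec24d (-0.43 ± 0.11, adjusted p = 0.0142) and Sec23b (-0.39 ± 0.10, adjusted p = 0.0192), all coat subunits, were among them. Without L-TBA 2, 1 fell. The call of Sec24d was lost with library totals (0.0739) and without L-TBA 2 (0.0679). For Sec24d the adjusted p ranged from 0.00361 to 0.0739 over the alternatives. The Sec23b call was lost with library totals (0.188) and without L-TBA 2 (0.0888). For Sec23b the adjusted p ranged from 0.0109 to 0.188 over the alternatives. Of 9 ER-phagy receptors, which deliver pieces of ER to the lysosome, Retreg1 (0.47 ± 0.09, adjusted p = 0.00479) and Calcoco1 (0.37 ± 0.09, adjusted p = 0.0134) rose and Retreg3 fell (-0.27 ± 0.09, adjusted p = 0.0408). The call of Calcoco1 was lost without L-TBA 2 (0.0653). For Calcoco1 the adjusted p ranged from 0.00355 to 0.0653 over the alternatives. The call of Retreg3 was lost with library totals (0.289), with no filter (0.0538), without H-TBA 2, 3 or 4 (0.0886, 0.0985 and 0.083) and without L-TBA 1, 2 or 3 (0.0511, 0.158 and 0.0953). For Retreg3 the adjusted p ranged from 0.0182 to 0.289 over the alternatives. Heat shock proteins and their regulators outside the ER, in the cytosol and, for Hspd1 and Hspe1, in mitochondria, gave 3 lower and none higher of 20 with a median of -0.09. Those were Hspa4 (-0.29 ± 0.08, adjusted p = 0.0202), Hspa4l (-0.37 ± 0.11, adjusted p = 0.0358) and Dnaja1 (-0.33 ± 0.10, adjusted p = 0.0388), exchange factors and a co-chaperone of Hsp70. The call of Hspa4 was lost with library totals (0.18), without H-TBA 4 (0.0607) and without L-TBA 1, 2 or 3 (0.0636, 0.0697 and 0.0549). For Hspa4 the adjusted p ranged from 0.00313 to 0.18 over the alternatives. The Hspa4l call was lost with library totals (0.199), without H-TBA 3 or 4 (0.0896 and 0.0751) and without L-TBA 1 or 2 (0.118 and 0.135). For Hspa4l the adjusted p ranged from 0.0206 to 0.199 over the alternatives. The Dnaja1 call was lost with library totals (0.143), without H-TBA 2, 3 or 4 (0.0834, 0.0739 and 0.0772) and without L-TBA 1, 2 or 3 (0.132, 0.0701 and 0.087). For Dnaja1 the adjusted p ranged from 0.00908 to 0.143 over the alternatives. Of these 20, 1 fell without H-TBA 3 or L-TBA 3 and 0 without H-TBA 4, L-TBA 1 or L-TBA 2, and 1 rose without H-TBA 1. With library totals the counts were 4 lower and 4 higher for the integrated stress response, 0 and 1 for the other ER stress regulators, and 1 and 5 for the other folding enzymes. They were 3 and 2 for the oligosaccharyltransferase, 1 and 4 for the other ERAD genes, and 1 and 0 for the COPII coat. They were 0 and 2 for the ER-phagy receptors, 0 and 1 for the heat shock proteins outside the ER and none for targeting and translocation, each lower first. These lists were not compared with the 40 genes by a test.

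**Figure D5:**
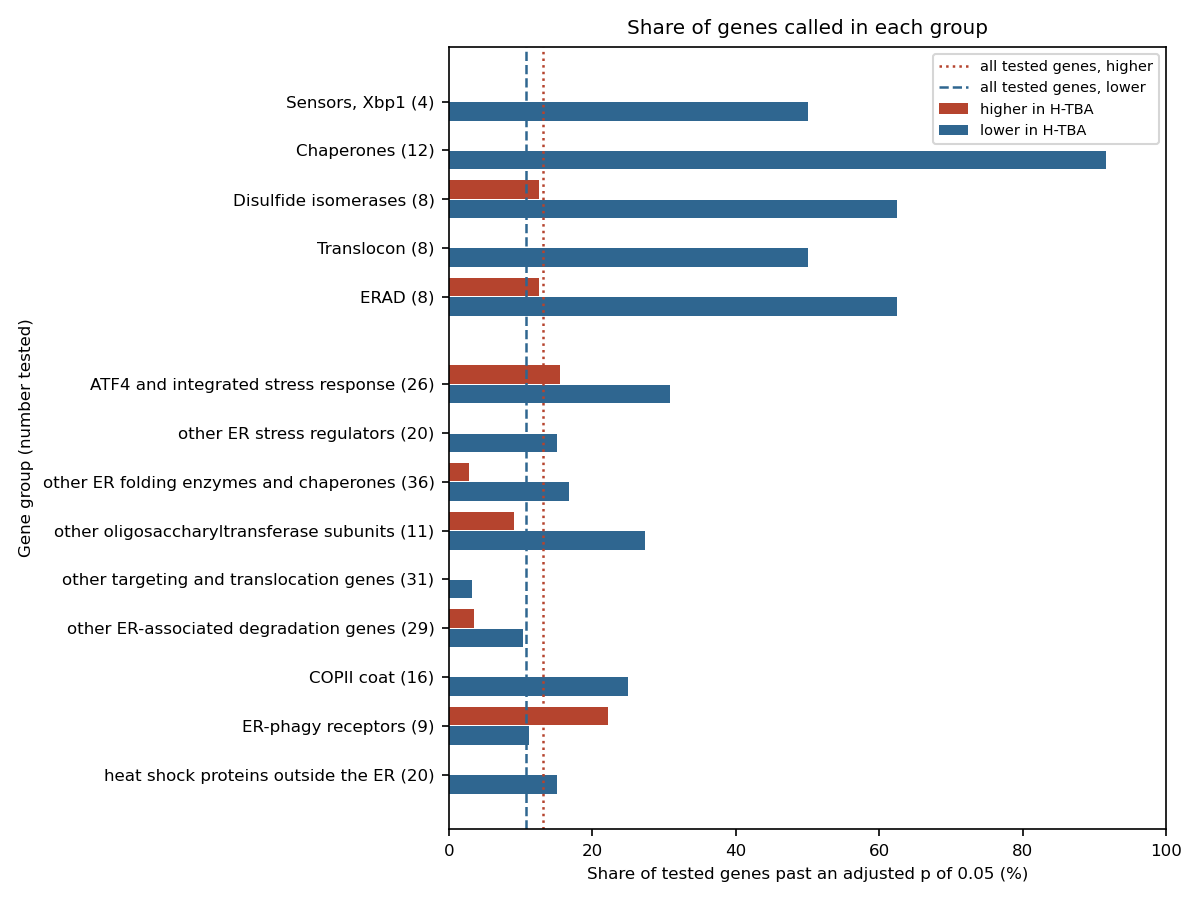
Share of tested genes past an adjusted p of 0.05 (x axis, percent) as higher (red) or lower (blue) in H-TBA, for the 5 roles of the 40 genes (top) and the 9 lists of other pathway genes (below), with the number tested in brackets. Lines mark the shares over all 15249 tested genes, 13.1% higher and 10.7% lower; the chaperones reach 91.7% lower.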

How the data were processed

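For 7 liver libraries the authors deposited a table of unnormalized whole-number counts by Ensembl identifier. Build mm9, TopHat2 2.0.11, CASAVA and DESeq2 1.18.1 are listed, without roles, in the submitters' processing notes. How reads were counted, with which strand setting and gene models, is not given in the sources used here, so overlapping, antisense and near-identical genes may share counts. Symbols came from a GENCODE table (32897 of 37620 identifiers matched); 5 list genes matched through another symbol.

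Genes were kept by filterByExpr (minimum count 10, minimum total 15; 15249 of the 23697 with a count) and tested for H-TBA over L-TBA with edgeR 4.0.16 (quasi-likelihood; limma 3.58.1, R 4.3.3), TMM scaling and Benjamini-Hochberg adjustment at 0.05 over all tested genes; every adjusted p is from it unless an alternative is named. Levels are TMM-scaled CPM in replicate order. Levels per kilobase are CPM divided by GENCODE exon length on build GRCm38. The fitting step was tested on simulated counts.

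The 40 genes and all lists were chosen with earlier results of these data known. Values in every library were given to genes past the threshold, the sensors and Hspa5, Hsp90b1, Calr, Canx, P4hb and Sec61a1. From each list of pathway genes up to 3 with the smallest adjusted p were named, plus Atf4, Ddit3, Trib3, Asns, Creb3l3 and Ppp1r15b. Ero1l and Magt1 were named after their values were seen, and were not followed through the alternatives. Ranges of adjusted p, and the lost calls given gene by gene, leave out the replicate term. With that term the calls of Canx (0.0768), Derl3 (0.0906), Rad23b (0.055), Tusc3 (0.0596) and Retreg1 (0.0519), among others, were lost. Alternatives were DESeq2 1.42.0, limma-voom with quality weights, DESeq2 size factors, library totals, a robust fit, a stricter filter, no filter, an offset for gene length, the replicate number as a term and leaving out each library. Counts of any 2 libraries of a group differed by a chi-square of at least 5.64 per degree of freedom, so none was counted as a duplicate. Figures were drawn with matplotlib 3.10.9.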

Additional observations from a re-analysis of the deposited data

Results flagged for a closer look

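The 4 H-TBA libraries were checked for each of the 40 genes, and 3 genes had 1 library standing apart by Dixon's ratio; chance alone gives about 1 in 20. Xbp1 was high in H-TBA 2 at 184.6 CPM, where the other 3 lay between 153.9 and 158.9 CPM (ratio 0.838). Manf was also high in H-TBA 2, at 44.76 CPM beside 35.05 to 36.17 CPM (ratio 0.885). Hyou1 was high in H-TBA 4, at 61.65 CPM beside 57.08 to 57.63 CPM (ratio 0.878), a gap that is small against its distance from the L-TBA libraries. All 3 genes fell in H-TBA with these libraries included, and the libraries moved the values towards L-TBA.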

How the results depend on the processing

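Of the 29 genes called, 15 kept the call in all 16 alternatives, 3 lost it in 1 or 2 and 11 in more. The number lower in H-TBA was 27, and 26 to 29 with another test, filter, size factor or length offset, but 16 with library totals; leaving out 1 library gave 17 (without L-TBA 2) to 27. The number higher was 2, and 1 with DESeq2 size factors, DESeq2, no filter or the length offset, and 1 in each fit without 1 library, since the call of Pdia5 was lost. With the replicate block 15 were lower and 1 was higher. Replicate numbers showed no sign of pairing the libraries: deviations of same-numbered libraries correlated at -0.103, -0.0589 and -0.0627, and 0 of 3 matched its own number best. So few pairs cannot exclude pairing or a shared batch. Signs turned only for genes that had not passed. With library totals the log2 fold change was 0.0126 for Eif2ak3, 0.0606 for Sec61a1, 0.116 for Ssr4 and 0.0895 for Creb3l3. For Ssr2 it was -0.00318 with DESeq2 size factors, -0.0031 by DESeq2 and -0.0222 with the block. With 1 library left out it ran from -0.187 (without L-TBA 3) to 0.0643 (without L-TBA 2) for Sec61a1, from -0.0524 (without L-TBA 1) to 0.0985 (without L-TBA 2) for Ssr2, and from -0.0911 (without L-TBA 1) to 0.00893 (without L-TBA 3) for Ssr4. The cause was not tested. With 4 and 3 libraries and a common biological coefficient of variation of 0.125, genes that did not pass are not shown to be equal, and Derl3, with at most 15 counts in a library, is the least precise.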

Other observations

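Outside the 40 genes, 4 of the 11 tested genes with an ER stress element in their promoter passed the test; they are named after their values were seen. Calr4, a relative of Calr, was the 1 that rose: it had 0.841, 2.93, 3.9 and 2.59 CPM in the H-TBA libraries, against 0.432, 0.359 and 0.3 CPM in the L-TBA libraries (log2 fold change 2.78 ± 0.54 (SE), adjusted p = 0.00377), while Calr fell. Its level was low, with 9, 30, 48 and 32 counts in the H-TBA libraries and 5, 4 and 3 counts in the L-TBA libraries. All L-TBA counts were under the minimum count of 10, so Calr4 entered the test only through the group where it was high. It was tested in 12 of the 16 alternatives and kept the call in those. Its rise therefore carries little weight beside the fall of Calr. Acnat2, an acyl-CoA conjugating enzyme of peroxisomes, had 33.6, 27.7, 33.6 and 51.5 CPM in the H-TBA libraries, against 59, 99.7 and 69.5 CPM in the L-TBA libraries (log2 fold change -1.05 ± 0.21 (SE), adjusted p = 0.00417). Hnrnpa3, an RNA-binding protein, had 107, 91.1, 108 and 99.3 CPM in the H-TBA libraries, against 133, 135 and 132 CPM in the L-TBA libraries (log2 fold change -0.40 ± 0.08 (SE), adjusted p = 0.00554). Acacb, the acetyl-CoA carboxylase that restrains fatty acid oxidation, had 34.2, 19.6, 15.7 and 17.2 CPM in the H-TBA libraries, against 29.5, 39.9 and 36.9 CPM in the L-TBA libraries (log2 fold change -0.71 ± 0.23 (SE), adjusted p = 0.042). The groups of Acacb overlapped through H-TBA 1. The call of Hnrnpa3 was lost with library totals (0.0705). For Hnrnpa3 the adjusted p ranged from 0.000175 to 0.0705 over the alternatives. The Acacb call was lost with library totals (0.0637), with a robust fit (0.105), without H-TBA 2, 3 or 4 (0.104, 0.1 and 0.119) and without L-TBA 2 or 3 (0.132 and 0.102). For Acacb the adjusted p ranged from 0.000179 to 0.132 over the alternatives.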
